A study of Mus musculus with 12 samples.

Results

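The dorsal and roof plate transcription factors examined here were Zic1, Zic2, Zic4, Zic5, Lmx1a, Msx1, Msx2, Pax3 and Gbx2, 9 of the 53465 genes counted. They were chosen by name, as Zic family and dorsal midline factors, with earlier results of these data known. Each was identified by its Ensembl gene identifier. RNA came from spinal cord cells of C57BL/6 mice at postnatal day 7, taken at brachial and thoracic levels and dissociated with papain. All animals had the genotype Aldh1L1-GFP/Olig2-tdTomato, in which Aldh1L1, an astrocyte gene, drives green fluorescence and Olig2, a gene of the oligodendrocyte and motor neuron lineages, drives the red tdTomato protein. Fluorescence sorting gave 3 fractions, labelled eGFP/tdTomato, eGFP and tdTomato, each with 4 libraries numbered 1, 2, 3 and 5. The labels call them biological replicates, without stating gates or how many animals went into each. The p-values therefore describe variation among the libraries at hand, which may be partly technical.

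The neural tube is patterned from its dorsal midline, where the roof plate secretes BMP and Wnt proteins, and from its ventral midline, where the floor plate secretes Sonic hedgehog. Dorsal progenitors answer the roof plate signals by expressing homeobox, paired-box and zinc finger factors that fix their position, and astrocytes born from these progenitors can keep part of that code. Lmx1a specifies the roof plate itself, Msx1 and Msx2 are homeobox targets of BMP signalling, Pax3 marks dorsal progenitors and neural crest, Gbx2 is a homeobox gene of the hindbrain and dorsal cord, and the Zic genes encode zinc finger proteins related to the Gli factors.

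In eGFP/tdTomato cells Lmx1a, Zic4 and Msx1 were lower than in eGFP cells, by 9.08-, 11- and 3.00-fold, and the other 6 factors were not called between these fractions. All 9 were called higher in eGFP than in tdTomato cells, and all but Zic2 were called higher in eGFP/tdTomato than in tdTomato cells. Zic2 was 3.34-fold higher in eGFP/tdTomato than in tdTomato cells but missed the threshold (adjusted p = 0.0552 in edgeR). Members of a family differed: Zic4 was lower in eGFP/tdTomato than in eGFP cells and its neighbour Zic1 was not called, and Msx1 was lower while its paralog Msx2 was not called. The read ratio of each pair is given further on, with a test added after the counts had been seen, which is no independent support.

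The libraries held 23915784 to 30299452 gene counts in the eGFP/tdTomato fraction, 12564767 to 27898597 in the eGFP fraction and 25460920 to 36505583 in the tdTomato fraction. Aldh1l1 averaged 722 ± 170 counts per 1000000 (CPM) in eGFP/tdTomato, 406 ± 207 in eGFP and 3.69 ± 1.83 in tdTomato libraries, and Olig2 averaged 74.4 ± 30.0, 5.76 ± 3.06 and 258 ± 80.1 CPM in the same order (SD, n = 4 each). The library labelled eGFP replicate 1 stood apart, with 57.1% of its reads outside annotated genes, against 21.2 to 42.5% in the other 11 libraries, and a TMM scaling factor of 1.443, against 0.776 to 1.151. Log2 fold changes of eGFP/tdTomato over eGFP are also given without it. CPM were scaled with TMM factors throughout, and a gene was called when its adjusted p in edgeR's quasi-likelihood test, with Benjamini-Hochberg adjustment over 29361 genes, was under 0.05. In bulk libraries, fewer cells of a type and less RNA per cell cannot be told apart.

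The Zic genes lie in head-to-head pairs in the mouse genome. In the GENCODE annotation of GRCm38, Zic1 spans chr9:91358058-91365810 on the minus strand and Zic4 spans chr9:91362413-91389348 on the plus strand. These gene bodies overlap by 3398 bases. The start sites RefSeq gives for them are 3204 bases apart. The RefSeq start site of Zic4, at base 91368972, lies inside its GENCODE gene body, so the Zic4 window below is not at the GENCODE gene start. Zic5 spans chr14:122456795-122465677 on the minus strand and Zic2 spans chr14:122475435-122479852 on the plus strand, with GENCODE gene starts 9758 bases apart. Promoter windows from RefSeq (build GRCm38.p6, 250 bases before to 50 after the start site) were available for 7 of the 9 factors, not for Zic2 and Pax3. Those of Zic1, Zic4, Msx1 and Msx2 are shown because the members of each pair differed in how they changed between fractions. Capitals mark matches, on either strand, to the motifs searched: TAATTA (homeodomain), CTTTGAA (TCF/LEF), GGCGCC (SMAD GC-rich), CAGCAGG (Zic), CAGCTG (E-box) and TGGGTGGTC (Gli).
Zic1, chr9:91365719-91366018, minus strand: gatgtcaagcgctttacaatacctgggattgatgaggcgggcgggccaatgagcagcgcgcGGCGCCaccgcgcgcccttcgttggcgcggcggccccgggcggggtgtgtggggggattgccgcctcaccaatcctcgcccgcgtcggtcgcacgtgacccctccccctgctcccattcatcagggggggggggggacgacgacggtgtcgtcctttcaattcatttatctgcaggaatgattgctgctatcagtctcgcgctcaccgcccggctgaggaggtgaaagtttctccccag
Zic4, chr9:91368722-91369021, plus strand: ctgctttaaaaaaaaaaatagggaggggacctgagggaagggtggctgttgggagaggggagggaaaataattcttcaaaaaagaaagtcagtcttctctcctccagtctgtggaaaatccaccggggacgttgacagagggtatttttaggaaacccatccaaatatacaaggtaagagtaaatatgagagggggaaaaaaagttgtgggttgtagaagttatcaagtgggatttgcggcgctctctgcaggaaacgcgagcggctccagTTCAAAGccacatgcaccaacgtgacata
Msx1, chr5:37824536-37824835, minus strand: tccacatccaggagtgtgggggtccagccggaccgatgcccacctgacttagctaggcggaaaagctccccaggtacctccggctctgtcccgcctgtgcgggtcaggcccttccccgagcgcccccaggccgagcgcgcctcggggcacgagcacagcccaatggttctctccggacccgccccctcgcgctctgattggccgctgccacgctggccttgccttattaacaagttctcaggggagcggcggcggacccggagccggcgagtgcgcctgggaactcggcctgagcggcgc
Msx2, chr13:53472731-53473030, minus strand: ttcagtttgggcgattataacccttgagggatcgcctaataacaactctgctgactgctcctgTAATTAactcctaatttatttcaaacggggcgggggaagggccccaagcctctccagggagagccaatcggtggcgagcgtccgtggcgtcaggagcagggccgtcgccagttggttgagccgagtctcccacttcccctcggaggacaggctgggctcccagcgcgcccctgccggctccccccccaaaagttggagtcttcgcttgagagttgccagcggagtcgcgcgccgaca
The Zic1 window held 31 CpG dinucleotides, more than 89.4% of 32851 promoters of that length, and the Zic4 window held 8, more than 51.4% of them. Msx1 and Msx2 had 29 and 22 CpG dinucleotides, against a median of 7.0 over all promoters. GGCGCC occurred in the Zic1 and Gbx2 windows and in 11.87% of all promoters. CTTTGAA occurred, as TTCAAAG, in the Zic4 window and in 5.14% of all promoters, TAATTA in the Msx2 window and in 5.29%, and CAGCTG in the Gbx2 window and in 16.3%. CAGCAGG and TGGGTGGTC occurred in none of the 7 windows, and in 10.51% and 0.25% of all promoters. The windows of Msx1, Lmx1a and Zic5 held no match to these letters. A match is a run of letters and was not tested for binding.

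**Figure D1:**
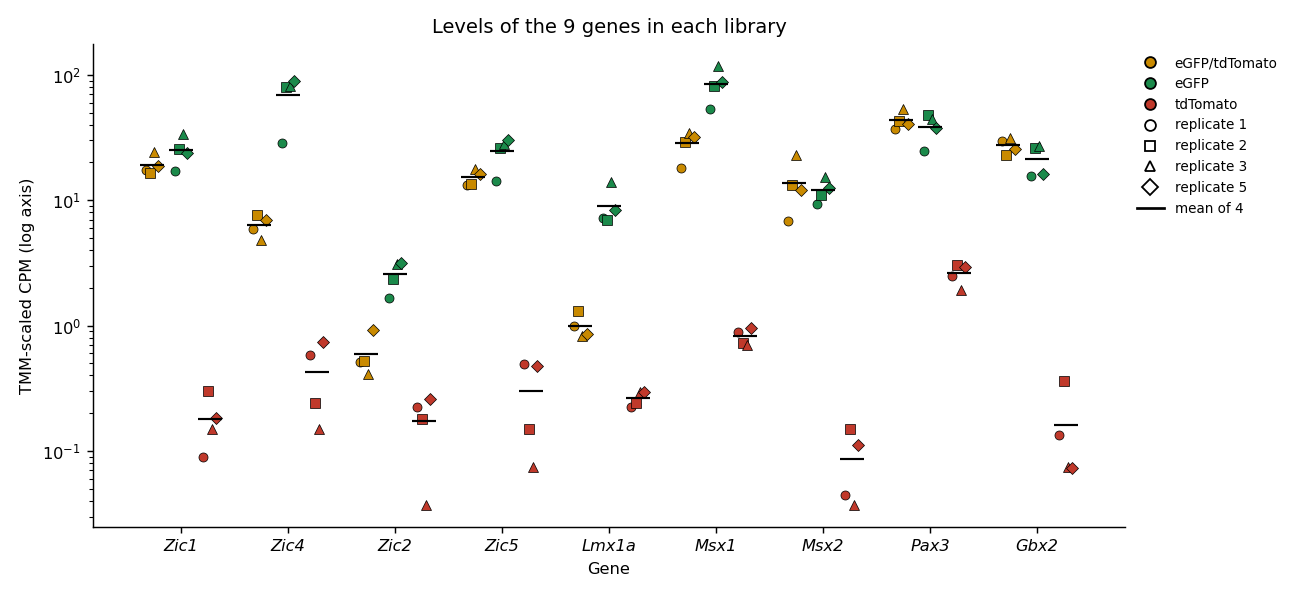
Level of each factor in each library, in TMM-scaled CPM on a log axis, by fraction; each point is 1 library, its shape gives the replicate number, and bars mark the means of 4 libraries. Zic4 points lie at 4.86 to 7.58 CPM in eGFP/tdTomato libraries and at 28.4 to 88.7 CPM in eGFP libraries, while the Zic1, Msx2, Pax3 and Gbx2 points of these fractions overlap.

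Lmx1a, the LIM-homeodomain gene whose loss removes the roof plate in mice, lies at chr1:167689237-167848741 on the plus strand. It had 0.989, 1.32, 0.828 and 0.852 CPM in eGFP/tdTomato replicates 1, 2, 3 and 5, against 7.19, 6.93, 13.9 and 8.34 CPM in the eGFP replicates and 0.223, 0.241, 0.298 and 0.295 CPM in the tdTomato replicates. Every eGFP/tdTomato library lay below every eGFP library and above every tdTomato library. The log2 fold change of eGFP/tdTomato over eGFP was -3.18 ± 0.35 (SE), with an adjusted p of 0.000129 in edgeR, and it was -3.34 without eGFP replicate 1 (adjusted p = 0.000103). These levels rest on 22 to 33 reads per eGFP/tdTomato library, 129 to 368 per eGFP library and 5 to 8 per tdTomato library. Lmx1a was also higher in eGFP/tdTomato than in tdTomato cells, by 3.72-fold (log2 fold change 1.89 ± 0.37, adjusted p = 0.000904 in edgeR), a call that limma-voom did not make (adjusted p = 0.0746).

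Zic4 is the Zic gene whose deletion together with its neighbour is associated with Dandy-Walker malformation of the cerebellum in humans. It had 5.86, 7.58, 4.86 and 7.00 CPM in eGFP/tdTomato replicates 1, 2, 3 and 5, against 28.4, 79.6, 81.2 and 88.7 CPM in the eGFP replicates and 0.579, 0.241, 0.149 and 0.738 CPM in the tdTomato replicates. The 3 fractions did not overlap, and the lowest eGFP value came from replicate 1. Without that library the log2 fold change of eGFP/tdTomato over eGFP was -3.78 (adjusted p = 1.45e-05 in edgeR), against -3.46 ± 0.39 with all libraries (adjusted p = 0.000138).

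Zic1, which acts in dorsal progenitors and cerebellar granule cell precursors, had 17.4, 16.5, 24.2 and 18.6 CPM in eGFP/tdTomato replicates and 17.0, 25.5, 33.7 and 23.8 CPM in eGFP replicates. The fractions overlapped, and the log2 fold change of eGFP/tdTomato over eGFP was -0.39 ± 0.25, with a 95% interval of -0.91 to 0.14 (adjusted p = 0.775 in edgeR). Without eGFP replicate 1 it was -0.58 (adjusted p = 0.402 in edgeR). tdTomato libraries held 2 to 10 Zic1 reads each. The level of Zic1 in eGFP/tdTomato cells was 99.3-fold that in tdTomato cells (log2 fold change 6.63 ± 0.35, adjusted p = 1.6e-09 in edgeR).

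Zic5, a gene needed for neural tube closure and neural crest in mice, had 13.3, 13.6, 17.8 and 16.1 CPM in eGFP/tdTomato replicates and 14.2, 26.2, 28.1 and 30.1 CPM in eGFP replicates. The lowest eGFP library again was replicate 1 and was the only one to overlap the eGFP/tdTomato range. The log2 fold change of -0.70 ± 0.33 did not pass (adjusted p = 0.501 in edgeR), nor did the value of -0.95 without eGFP replicate 1 (adjusted p = 0.205). Zic2, a holoprosencephaly gene in humans, was the lowest of the family. It had 0.511, 0.518, 0.414 and 0.926 CPM in eGFP/tdTomato replicates, against 1.67, 2.36, 3.12 and 3.17 CPM in eGFP replicates and 0.223, 0.181, 0.0372 and 0.258 CPM in tdTomato replicates. Although no eGFP/tdTomato library reached any eGFP library, the counts were small, at 11 to 25 and 30 to 84 reads. The log2 fold change of -2.11 ± 0.62 did not pass in edgeR (adjusted p = 0.109), while DESeq2 (adjusted p = 0.00114) and limma-voom (adjusted p = 0.0268) called it. Without eGFP replicate 1 it was -2.34 (adjusted p = 0.0652 in edgeR).

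Msx1, at chr5:37820485-37824583 on the minus strand, had 18.2, 29.1, 34.3 and 31.9 CPM in eGFP/tdTomato replicates, against 53.6, 81.1, 117.8 and 87.5 CPM in eGFP replicates and 0.891, 0.722, 0.707 and 0.959 CPM in tdTomato replicates. All eGFP/tdTomato libraries lay between the single-reporter fractions. The log2 fold change of eGFP/tdTomato over eGFP was -1.58 ± 0.25 (adjusted p = 0.00184 in edgeR), or -1.81 without eGFP replicate 1 (adjusted p = 0.000252), and that of eGFP/tdTomato over tdTomato was 5.11 ± 0.30 (adjusted p = 4.6e-09). Its paralog Msx2, at chr13:53466884-53473074 on the minus strand, had 6.78, 13.2, 22.9 and 12.1 CPM in eGFP/tdTomato replicates and 9.31, 11, 15.2 and 12.6 CPM in eGFP replicates, with 1 to 5 reads in each tdTomato library. Its eGFP/tdTomato libraries spread more widely than, and overlapped, the eGFP libraries, and the log2 fold change was 0.19 ± 0.33 (95% interval -0.52 to 0.90, adjusted p = 1.00 in edgeR), or 0.03 without eGFP replicate 1.

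Pax3, at chr1:78101267-78197134 on the minus strand, had 37.2, 43.1, 53.0 and 40.6 CPM in eGFP/tdTomato replicates and 24.8, 48.1, 44.3 and 37.6 CPM in eGFP replicates. These ranges overlapped (log2 fold change 0.17 ± 0.22, 95% interval -0.30 to 0.63), and without eGFP replicate 1 the sign turned (-0.06). Pax3 had the highest tdTomato level of the 9 factors, at 2.61 ± 0.52 CPM (SD, n = 4) from 52 to 102 reads per library. Gbx2, at chr1:89927956-89931179 on the minus strand, had 29.7, 22.9, 31.1 and 25.8 CPM in eGFP/tdTomato replicates and 15.5, 26.1, 27.1 and 16.2 CPM in eGFP replicates, which overlapped (log2 fold change 0.37 ± 0.28, 95% interval -0.24 to 0.98, adjusted p = 0.906 in edgeR, and 0.19 without eGFP replicate 1). An interval that includes 0 leaves room for a difference of the size it spans. Between eGFP/tdTomato and tdTomato cells, Gbx2 showed a 157-fold difference (log2 fold change 7.30 ± 0.41, adjusted p = 3.24e-09 in edgeR). That fold rests on 2 to 12 reads per tdTomato library, and without tdTomato replicate 2 the log2 fold change was 8.14. Gbx2 overlaps the antisense gene D130058E05Rik over 946 bases, 43.5% of its exonic length, and the strand setting of the counting is not given, so reads there cannot be assigned with certainty. D130058E05Rik averaged 6.42 CPM in eGFP/tdTomato, 7.81 in eGFP and 0.199 in tdTomato libraries. Zic1 and Zic4 share 60 exonic bases on opposite strands, 1.1% of the Zic1 and 0.6% of the Zic4 exonic length.

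Counted over the 9 factors, 3 were called lower and 0 higher in eGFP/tdTomato than in eGFP cells, where edgeR called 1.67% of all 29361 tested genes lower and 0.814% higher (2.49% in either direction). At an unadjusted p under 0.05 edgeR gave 5 lower and 0 higher, and both DESeq2 and limma-voom called 4 lower and 0 higher. Over all genes DESeq2 called 949 lower and 547 higher, against 491 and 239 in edgeR. The shares of all genes at an unadjusted p under 0.05, and those called by limma-voom, are not given here. The factors' median log2 fold change was -0.70, against -0.02 over all genes tested. In eGFP/tdTomato against tdTomato cells 8 were called higher and 0 lower, where 16.8% of all genes were called higher and 29.2% in either direction, and Zic2 missed the threshold (log2 fold change 1.74 ± 0.64, adjusted p = 0.0552 in edgeR). In eGFP against tdTomato cells all 9 were called higher, where 20.4% of all genes were called higher and 35.2% in either direction, with log2 fold changes of 3.85 ± 0.68 for Zic2 to 7.36 ± 0.49 for Zic4. The libraries of 4 factors, Lmx1a, Zic4, Zic2 and Msx1, did not overlap between eGFP/tdTomato and eGFP, as for 7.94% of all genes tested (4.18% with eGFP/tdTomato lower). Those of all 9 did not overlap in either comparison with tdTomato, as for 35.4% of all genes between eGFP/tdTomato and tdTomato (20.6% higher) and 33.9% between eGFP and tdTomato (19.6% higher). All 9 passed the filter on low counts. The comparisons share libraries pairwise, so their values are not independent of each other.

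**Figure D2:**
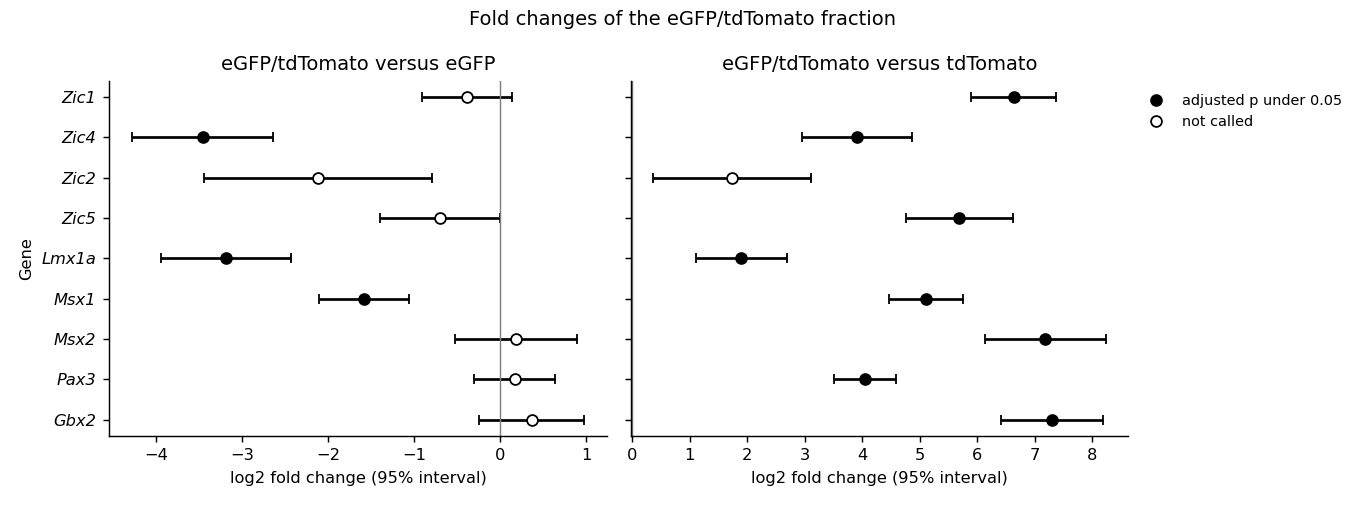
Log2 fold change of each factor in eGFP/tdTomato over eGFP cells (left) and over tdTomato cells (right), with 95% intervals from the edgeR fit of 12 libraries; filled points have an adjusted p under 0.05. On the left, Zic4 (-3.46), Lmx1a (-3.18) and Msx1 (-1.58) are filled, and on the right Zic2 (1.74) is the one open point.

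The position of the eGFP/tdTomato mean on the way from the eGFP mean (0%) to the tdTomato mean (100%) differed among the factors. It was 91.7% for Lmx1a, 91.5% for Zic4, 82.6% for Zic2 and 67.3% for Msx1. Zic5 and Zic1 lay at 38.9% and 23.6%. Pax3, Msx2 and Gbx2 had mean levels beyond the eGFP side, at -13.3%, -14.2% and -29.4%, though none of these 3 was called between eGFP/tdTomato and eGFP. With 1 library left out at a time, a check added after the values were seen, Pax3 lay between -24.1% and -0.4%, the value nearest 0 being that without eGFP replicate 1. Msx2 lay between -33.6% and 11.3%, on the other side of the eGFP mean without eGFP/tdTomato replicate 3, and Gbx2 between -42.6% and -18.6%. For Lmx1a and Zic4 the range was 89.9% to 92.9% and 90.6% to 92.9%. Positions were taken on the linear CPM scale, so a mean near 100% can still be many-fold above the tdTomato mean. Lmx1a, Zic4, Zic2 and Msx1 were 3.72-, 15.0-, 3.34- and 34.6-fold higher in eGFP/tdTomato than in tdTomato cells, all called except Zic2. The positions are descriptions and were not tested.

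**Figure D3:**
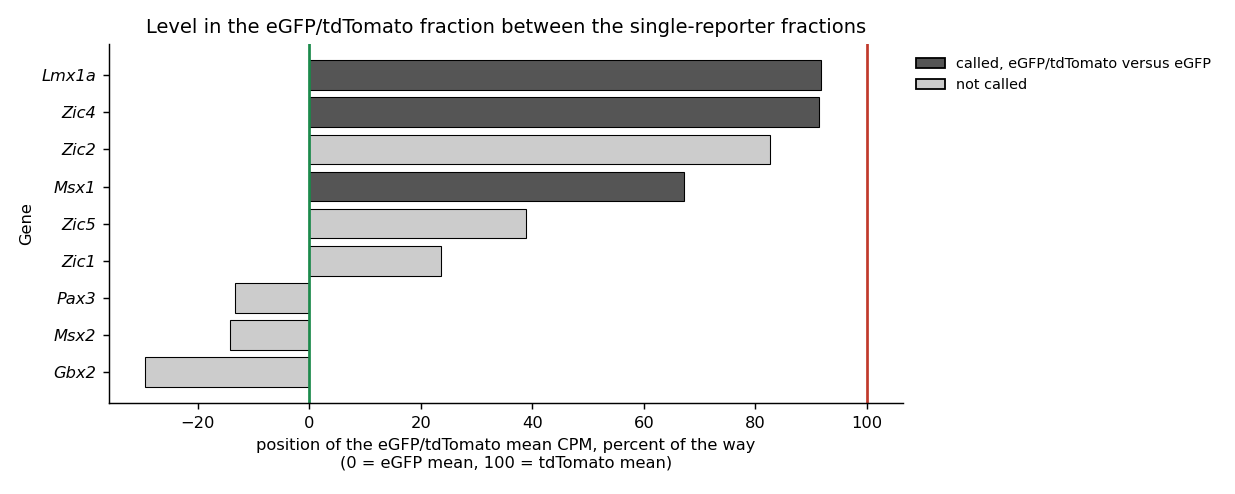
Position of the eGFP/tdTomato mean CPM of each factor on the way from the eGFP mean (0) to the tdTomato mean (100), in percent; dark bars mark factors called between eGFP/tdTomato and eGFP cells. Positions are on the linear CPM scale. Lmx1a and Zic4 reach 91.7% and 91.5%, and Gbx2 lies at -29.4%.

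Read ratios within a library compare related genes without any scaling between libraries. The Zic4 to Zic1 ratio of raw reads was 0.338, 0.460, 0.201 and 0.376 in eGFP/tdTomato replicates 1, 2, 3 and 5, against 1.67, 3.12, 2.41 and 3.72 in the eGFP replicates. Zic1 reads thus outnumbered Zic4 reads in every eGFP/tdTomato library, and Zic4 reads outnumbered Zic1 reads in every eGFP library. The Msx1 to Msx2 ratio was 2.69, 2.20, 1.5 and 2.64 in eGFP/tdTomato replicates, against 5.76, 7.35, 7.73 and 6.94 in eGFP replicates. For the other Zic pair, the Zic5 to Zic2 ratio was 26.1, 26.2, 42.9 and 17.4 in eGFP/tdTomato replicates, against 8.50, 11.1, 9.0 and 9.49 in eGFP replicates. The 3 log2 ratios differed by -2.99 for Zic4 to Zic1, by -1.65 for Msx1 to Msx2 and by 1.49 for Zic5 to Zic2 (eGFP/tdTomato minus eGFP). Each difference had an exact two-sided permutation p of 0.0286, before and after Benjamini-Hochberg adjustment over the 3 ratios, the smallest that 4 libraries against 4 allow. This test was added after the counts had been seen, and it restates differences visible in the levels rather than adding independent ones.

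**Figure D4:**
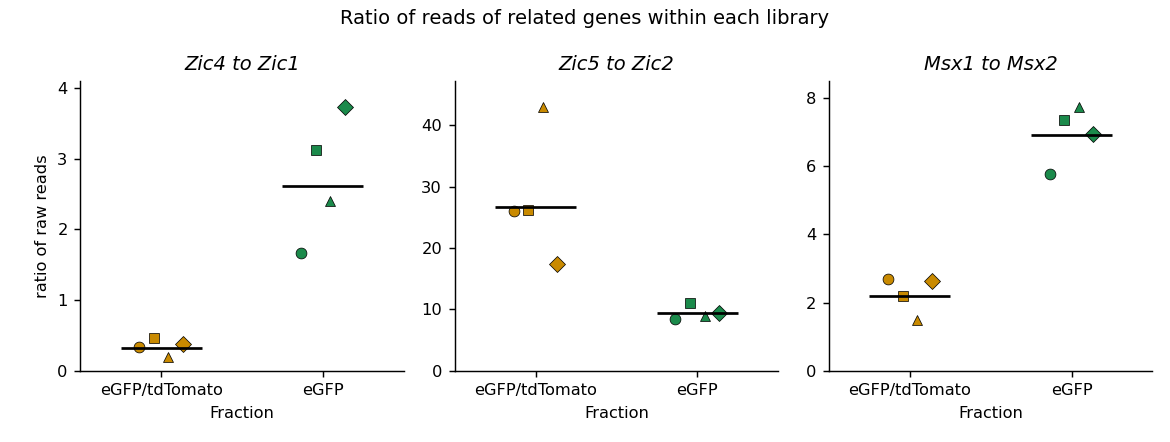
Ratio of raw reads between related factors in each eGFP/tdTomato and eGFP library; each point is 1 library, its shape gives the replicate number, and bars are geometric means. The fractions are separate in each panel, with Zic4 to Zic1 at 0.201 to 0.460 in eGFP/tdTomato libraries and 1.67 to 3.72 in eGFP libraries.

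Levels of different genes were compared as CPM per kb of exon. For Gbx2 all 2177 exonic bases were used, although only 1231 are free of D130058E05Rik. If reads in the shared bases were not counted, its values are too low, so its place in each order is uncertain. In eGFP/tdTomato libraries the order was Gbx2 (12.6), Msx1 (9.17), Pax3 (7.03), Msx2 (4.19), Zic1 (3.37), Zic5 (3.11), Zic4 (0.612), Lmx1a (0.293) and Zic2 (0.206). Ranges of the libraries overlapped between each neighbour in this order from Gbx2 to Zic5, and between Lmx1a and Zic2, while Zic4 at 0.470 to 0.733 stood apart from the genes above and below it. In eGFP libraries Msx1 came first at 27.5 CPM per kb, with a range of 17.3 to 38.0 above that of every other factor. Gbx2 (9.74), Zic4 (6.72), Pax3 (6.26), Zic5 (5.04), Zic1 (4.39), Msx2 (3.67) and Lmx1a (2.67) followed with each overlapping the next, and Zic2 (0.896) lay below them all. In tdTomato libraries Pax3 (0.422) and Msx1 (0.265) were highest, and the other 7 factors had means between 0.0261 and 0.0778 CPM per kb, with ranges that overlapped between neighbours in the order. Zic4 thus ranked the third of 9 in eGFP libraries and the seventh in eGFP/tdTomato libraries.

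Other genes of dorsal patterning were counted beside the 9 factors. Of 20 other dorsal domain factors 17 were tested, and edgeR called 0 between eGFP/tdTomato and eGFP cells in either direction, with a median log2 fold change of -0.05. At an unadjusted p under 0.05 edgeR gave 1 higher and 3 lower, DESeq2 called 2 lower and limma-voom 1 lower. Dbx2, a homeobox gene of the intermediate cord, averaged 240, 150 and 19.9 CPM in eGFP/tdTomato, eGFP and tdTomato libraries. Pax6, a paired-box gene of dorsal and ventral progenitors, averaged 65.3, 105.8 and 4.05 CPM in the same order (log2 fold change of eGFP/tdTomato over eGFP -0.70 ± 0.22, adjusted p = 0.152 in edgeR). Gli3, the Hedgehog pathway repressor, averaged 82.7, 65.9 and 1.31 CPM. Against tdTomato cells 8 of these 17 were higher in eGFP/tdTomato cells and Gsx1 was lower.

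Among 14 tested roof plate signals, Gdf10, a BMP family member, was lower in eGFP/tdTomato than in eGFP cells, at 28.8 and 216 CPM, with 0.521 CPM in tdTomato cells (log2 fold change of eGFP/tdTomato over eGFP -2.91 ± 0.38, adjusted p = 0.000457 in edgeR). Bmp4, a roof plate ligand, was higher, at 6.85 CPM in eGFP/tdTomato and 1.54 CPM in eGFP cells (log2 fold change 2.19 ± 0.33, adjusted p = 0.00136 in edgeR), and its tdTomato level was 222 CPM. Bmp7 averaged 45.4, 17.6 and 15.0 CPM and the Wnt ligand gene Wnt7a averaged 77.3, 53.0 and 2.57 CPM in eGFP/tdTomato, eGFP and tdTomato libraries, and neither was called by edgeR between eGFP/tdTomato and eGFP (adjusted p = 0.0584 for Bmp7). Of the 14, edgeR thus called 1 higher and 1 lower (median log2 fold change -0.24), DESeq2 called 2 higher and 2 lower, and limma-voom 2 higher and 3 lower. Of 14 BMP receptors and response genes edgeR called 0 between eGFP/tdTomato and eGFP cells, with 0 higher and 1 lower at an unadjusted p under 0.05 and 0 called by DESeq2 or limma-voom, and 11 were higher and Smad7 lower in eGFP/tdTomato than in tdTomato cells. Id3, a BMP response gene, averaged 751, 532 and 5.65 CPM in eGFP/tdTomato, eGFP and tdTomato libraries. Of 12 tested ventral domain factors edgeR called 4 higher in eGFP/tdTomato than in eGFP cells, namely Nkx2-2, Olig1, Olig2 and Sox10, and 0 lower. Olig2 is the gene of the red reporter, and Sox10 was also on the neural crest, Schwann and melanocyte list. Of these 4, Nkx2-2, Olig2 and Sox10 were lower in eGFP/tdTomato than in tdTomato cells. Of 12 oligodendrocyte lineage markers 9 were likewise higher in eGFP/tdTomato than in eGFP cells. Whether the 4 calls reflect ventral position or that lineage was not tested. The median log2 fold change of the 12 was -0.23, and DESeq2 called 4 higher and 1 lower.

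Many markers of ependymal, meningeal and microglial cells were, like Lmx1a, Zic4 and Msx1, lower in eGFP/tdTomato than in eGFP cells. Of 14 ependymal markers 12 were lower in eGFP/tdTomato cells (median log2 fold change -3.70), and their summed level was 35.4 to 53.7 CPM in eGFP/tdTomato, 347 to 721 in eGFP and 8.74 to 18.1 in tdTomato libraries. Foxj1, the master regulator of motile cilia, averaged 5.19, 28.4 and 0.710 CPM in that order. Of 14 tested meningeal fibroblast markers 8 were lower in eGFP/tdTomato cells (median -3.00), with sums of 346 to 545, 777 to 2220 and 15.5 to 23.6 CPM. Of 12 microglia and macrophage markers 6 were lower (median -2.20), with sums of 90.7 to 111, 130 to 1119 and 29.9 to 57.7 CPM. The sum of 1119 CPM was that of eGFP replicate 5, against 130 to 313 in the other eGFP libraries. In eGFP replicates 1, 2, 3 and 5 the ependymal sums were 347, 721, 417.5 and 656 CPM, and the meningeal sums 887, 2220, 777 and 1309 CPM. Among these libraries Lmx1a and Msx1 were highest in replicate 3, and Zic4 in replicate 5. No marker of these lists was at 0 in a whole fraction. Their part in the results for Lmx1a, Zic4 and Msx1 was not tested.

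Neurons, neural crest derivatives and vessels were covered by 3 further marker lists. Of 12 tested dorsal horn neuron factors edgeR called 0 between eGFP/tdTomato and eGFP cells, with 0 higher and 2 lower at an unadjusted p under 0.05, and DESeq2 and limma-voom each called 2 lower. Their sums were 14.0 to 27.8 CPM in eGFP/tdTomato, 22.5 to 55.1 in eGFP and 15.1 to 23.1 in tdTomato libraries. Of 11 tested neural crest, Schwann and melanocyte markers, a group that bears on Pax3, edgeR called Sox10, higher in eGFP/tdTomato than in eGFP cells (13.9 and 1.65 CPM), and 0 lower. Sox10 was also counted among the ventral domain factors, and edgeR called it lower in both of these fractions than in tdTomato cells. At an unadjusted p under 0.05 edgeR gave 3 higher and 3 lower, DESeq2 called 1 higher and 2 lower, and limma-voom 1 higher and 0 lower. The sums were 149 to 185 CPM in eGFP/tdTomato, 144 to 199 in eGFP and 474 to 748 in tdTomato libraries. Of 12 endothelial and mural markers edgeR called Vtn lower, DESeq2 and limma-voom each called 2 lower, and the sums were 39.5 to 54.2 CPM in eGFP/tdTomato, 62.9 to 83.3 in eGFP and 7.51 to 19.0 in tdTomato libraries. Of 12 pan-astrocyte markers 2 were called higher by edgeR in eGFP/tdTomato than in eGFP cells (4 by DESeq2, 3 by limma-voom), as were 9 of 12 oligodendrocyte lineage markers.

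**Figure D5:**
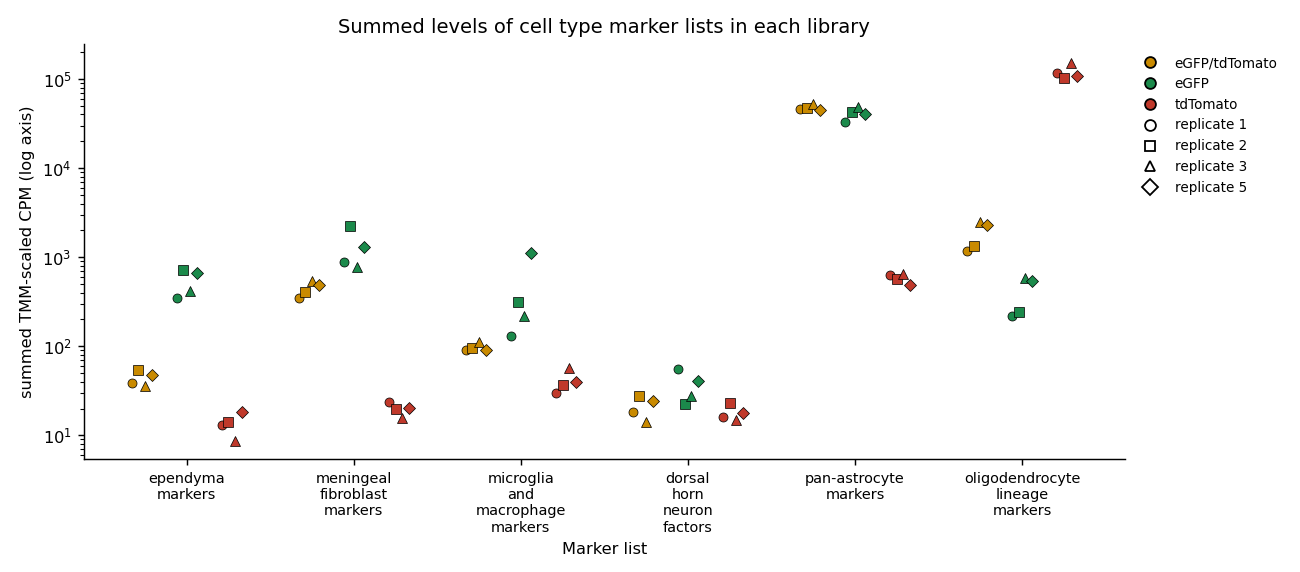
Summed TMM-scaled CPM of 6 marker lists in each library, on a log axis, by fraction; each point is 1 library and its shape gives the replicate number. Ependymal marker sums lie at 35.4 to 53.7 CPM in eGFP/tdTomato libraries and 347 to 721 CPM in eGFP libraries, while pan-astrocyte sums of these fractions overlap.

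The genes with profiles most like each factor were found as those with the smallest root mean square difference between centred log2(CPM + 0.5) profiles over the 12 libraries. The search covered 14833 tested genes with a mean of at least 1 CPM, and left out genes named by a Gm number, a Rik name or a similar clone name. For Zic4 these were Rsph1, Cfap44, Nme5, Capsl and Iqub, at 0.464 to 0.545 log2 units. Rsph1 was on the ependymal list and encodes a protein of the ciliary radial spoke. For Lmx1a they were Cfap43, Pdyn, Sncg, Fam166b and Cfap46, at 0.257 to 0.357, and for Msx1 they were Pi15, Cavin1, Ahnak, Atf3 and St8sia2, at 0.315 to 0.401. For Zic2 the list was led by St3gal6, and the 5 nearest genes lay at 0.238 to 0.295. Zic1 was nearest to Ccdc136 (0.119), Wwtr1 (0.180) and Robo2 (0.197), followed by Tekt5 and Chchd10. Zic5 was nearest to Thbs1 (0.243), Msx2 to Prkag2 (0.250), Pax3 to March3 (0.218) and Gbx2 to Cst3 (0.202). Among the 9 factors, Zic1 and Gbx2 (0.364) and Zic1 and Zic5 (0.365) had the most similar profiles, whereas the neighbours Zic1 and Zic4 differed by 1.28, Zic2 and Zic5 by 1.57, and Msx1 and Msx2 by 0.789. These distances describe 12 libraries of 3 fractions and carry no test.

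Genes beside the factors were described within 500 kb of each gene body. Of 78 tested neighbours edgeR called 0 higher and 2 lower in eGFP/tdTomato than in eGFP cells, where it called 0.814% of all genes higher and 1.67% lower. DESeq2 and limma-voom also called 0 higher and 2 lower, and at an unadjusted p under 0.05 edgeR gave 7 higher and 5 lower. Tmtc4, near Zic2 and Zic5, averaged 5.84 CPM in eGFP/tdTomato, 30.3 in eGFP and 4.11 in tdTomato libraries (log2 fold change of eGFP/tdTomato over eGFP -2.38 ± 0.29, adjusted p = 0.00023 in edgeR). Iqca, near Gbx2, averaged 1.60, 12.5 and 0.694 CPM (log2 fold change -2.97 ± 0.53, adjusted p = 0.0051 in edgeR), although Gbx2 itself was not called. Around the 3 factors that were lower, edgeR called none of 7 tested neighbours of Zic4, 10 of Lmx1a and 15 of Msx1. With 2.49% of all genes called in either direction, groups this small cannot show a lack of calls. Tmtc4 and Iqca were named after their values were seen.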

How the data were processed

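RNA of sorted spinal cord cells was sequenced on a BGISEQ-500, per the labels' protocols, in 12 libraries, 4 per fraction. The authors deposited raw counts per Ensembl gene made with STAR and HTSeq on GRCm38 (mm10), per the submitters' processing notes. Versions, annotation release and strand setting are not given in the sources used here. Of 53465 identifiers, 53360 (99.8%) matched GENCODE M21, and 5 lines that name no gene were left out.

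Counts were tested with edgeR 4.0.16 in R 4.3.3 (TMM, filterByExpr by fraction, robust quasi-likelihood F-test, all 12 libraries in 1 fit, fraction as the only factor), with Benjamini-Hochberg adjustment over 29361 genes. The SE is the log2 fold change over the root of F. The fit was tested on simulated counts. DESeq2 1.42.0, limma-voom (limma 3.58.1), other scalings and filters, protein-coding genes only, the 8 libraries compared, a replicate block, and leaving out each library or set were alternatives. Read ratios were compared by an exact permutation test. The precision of a level is the SD of 4 libraries.

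The factors and gene lists were chosen with earlier results of these data known. Genes named were the 9 factors, up to 4 genes per list with the highest mean CPM, the 5 nearest profiles of each factor, overlapping genes, and Aldh1l1 and Olig2. Not every gene chosen this way is reported here. Other genes are named as called, or after their values were seen.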

Additional observations from a re-analysis of the deposited data

Results flagged for a closer look

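Of 27 sets of 4 libraries (9 factors in 3 fractions), 1 held a library far from the others. Zic4 was at 28.4 CPM in eGFP replicate 1, against 79.6, 81.2 and 88.7 CPM in the other eGFP libraries. The gap to the nearest library was 0.849 of the whole range. About 1 such set in 20 is flagged by chance. This library also had the highest share of reads outside annotated genes (57.1%) and the highest TMM factor (1.443), whose part in the value was not tested.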

How the results depend on the processing

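Of 675 refits of the factors (9 factors, 3 comparisons, 25 alternatives), 670 stayed on the same side of the threshold and 0 called values changed sign. Msx2 and Pax3, not called between eGFP/tdTomato and eGFP, took log2 fold changes from -0.23 to 0.42 and -0.06 to 0.30. Zic4, Lmx1a and Msx1 were called lower in eGFP/tdTomato than in eGFP cells in all 25, with log2 fold changes of -3.78 to -3.35, -3.45 to -2.88 and -1.81 to -1.37, and adjusted p of at most 0.00644, 0.00751 and 0.0392. The other 5 refits concern low counts: Zic2 was called by DESeq2 and limma-voom against eGFP, and by DESeq2 (adjusted p = 0.0261) and without tdTomato replicate 5 (0.049) against tdTomato, and Lmx1a was lost against tdTomato with limma-voom; the cause was not tested. The counts of all genes moved more. In eGFP/tdTomato over eGFP, 239 genes were called higher, against 391 with upper quartile factors, 547 with DESeq2, and 491 lower, against 949 with DESeq2. With 1 library left out, 103 to 475 were higher and 323 to 656 lower, and with a set left out 60 to 163 higher and 201 to 504 lower. Higher calls moved by over 1.5 times without eGFP/tdTomato replicate 1 (151), 3 (103) or 5 (127) and without eGFP replicate 2 (152), 3 (475) or 5 (108), and lower calls without eGFP/tdTomato replicate 5 (323). Against tdTomato, 3628 were lower, and 5452 without eGFP replicate 1. Over all genes, the median log2 fold change against tdTomato was 0.70, against 0.57 with RLE and 0.58 with upper quartile factors or DESeq2, 0.122 with at least 1 CPM in 4 libraries, 0.245 with protein-coding genes, 0.249 with the 8 libraries compared and 0.87 with no filter. The replicate block gave -3.40 for Zic4, -3.14 for Lmx1a and -1.57 for Msx1 (3 factors lower, 566 genes higher). The numbers were not taken as pairing the libraries, since the labels do not say what a set shares and 8 of 12 same-numbered pairs, not all, correlated over 0.1. The correlations were -0.217 to 0.643, highest for replicate 3 (0.499 to 0.643), and 9 of 24 best matches had their own number.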

Other observations

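Olig3, a dorsal progenitor factor chosen here after its values were seen, averaged 0.398 CPM in eGFP/tdTomato, 3.83 CPM in eGFP and 0.0831 CPM in tdTomato libraries. The log2 fold change of eGFP/tdTomato over eGFP was -3.26 ± 1.04 and did not pass in edgeR (adjusted p = 0.157). The long noncoding gene 2610035F20Rik, which lies between Zic5 and Zic2, averaged 0.243 CPM in eGFP/tdTomato, 1.63 CPM in eGFP and 0.137 CPM in tdTomato libraries (log2 fold change of eGFP/tdTomato over eGFP -2.72, adjusted p = 0.379 in edgeR).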
